A study of Mus musculus with 6 samples.

Results

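The genes described here are 8 genes of the podocyte, the cell that carries the slit diaphragm of the kidney's filter: *Nphs1*, *Magi2*, *Podxl*, *Ptpro*, *Clic5*, *Synpo*, *Plce1* and *Wt1*. They were taken by symbol from a table of 21367 genes, each symbol matched 1 gene, and all 8 passed the filter on low counts that left 13036 genes for testing. The table holds mRNA sequencing of whole left kidneys from 6 mice of 7 weeks, 1 library per mouse. In all 6 the right kidney had been removed and the left pedicle clamped for 34 min, and the kidney was taken after 24 h of reperfusion (ischemia-reperfusion injury, IRI). The 3 *Ptpn6*+/mev mice carry 1 viable motheaten allele of *Ptpn6*, the gene of the tyrosine phosphatase SHP-1, in every cell of the body, and the labels call this genotype a knockdown of SHP1. The 3 wild-type mice are littermates on the C57BL/6 background. Uninjured kidneys were not analysed here, so each value below is a level in an injured kidney.

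A podocyte wraps the glomerular capillary with foot processes, and the slit diaphragm is the junction that bridges neighbouring foot processes and completes the filter for plasma proteins. Nephrin, the product of *Nphs1*, forms the bridge itself, scaffolds such as MAGI-2 tie it to the actin of the foot process, and a strongly negative coat on the apical membrane keeps the processes apart. Podocytes hardly divide, and mutations in several of these genes cause inherited proteinuria in people. The slit diaphragm in the strict sense therefore takes in *Nphs1* and *Magi2*, while *Podxl* and *Ptpro* belong to the apical membrane, *Clic5* and *Synpo* to the cytoskeleton below it, *Plce1* to signalling inside the cell and *Wt1* to the nucleus. In whole kidney these genes are read against tubule RNA, and in bulk tissue fewer cells of a type and less RNA per cell cannot be told apart.

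Total counts ranged from 10271590 to 12361745 per library. *Ptpn6* mRNA itself was at 11.8, 14.7 and 13.6 FPKM in *Ptpn6*+/mev and 17.5, 10.9 and 15.4 FPKM in wild-type kidneys, with a log2 fold change of -0.19 (SE 0.17, edgeR FDR 0.715), so the mRNA level does not separate the genotypes. Wild-type kidney 2 stood apart from the other libraries, with a TMM library factor of 0.929 against 0.994 to 1.03, and results that turn on it are given with and without it.

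The comparison asked whether the podocyte genes differed between *Ptpn6*+/mev and wild-type kidneys after IRI. By the quasi-likelihood method of edgeR, 0 of the 8 genes passed a false discovery rate (FDR, Benjamini-Hochberg adjusted p over all tested genes) of 0.05, where 18 of the 13036 tested genes, 0.138%, did, 0.069% in each direction. At an unadjusted p under 0.05 the count was 0 of 8 as well, against 12.2% of all tested genes. Without *Ptpn6*+/mev kidney 3 it was 1 of 8, *Clic5*, against 8.05% of all tested genes. DESeq2's Wald test called 0 of 8 beside 2.97% of all tested genes, edgeR's exact test 0 of 8 beside 2.99%, and limma on log2 FPKM 0 of 8 beside 0.169% (pseudocount 1) or 0.146% (pseudocount 0.1). The log2 fold change, *Ptpn6*+/mev over wild-type, was above 0 for 6 genes and below 0 for 2, with a median of 0.14. Without wild-type kidney 2 it was above 0 for 4 and below 0 for 4, with a median of 0.013, and without *Ptpn6*+/mev kidney 1 the median was 0.05. Over all tested genes the median was -0.0024, and 49.5% were above 0. The 95% intervals of the 8 genes ran, as a ratio of *Ptpn6*+/mev to wild-type, from 0.695 at the lower end for *Magi2* to 1.68 at the upper end for *Wt1*.

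Transcript levels between genes were compared as FPKM, fragments scaled by transcript length and library depth, which corrects for length. *Podxl* had the highest mean level over the 6 kidneys, 64.7 FPKM, at the 88.9th percentile of tested genes. *Synpo* followed with 21.8 FPKM, *Clic5* with 12.1, *Wt1* with 6.72, *Nphs1* with 5.17, *Ptpro* with 4.84, *Plce1* with 2.13 and *Magi2* with 1.83, the last at the 15.9th percentile. In this order the ranges over the 6 kidneys did not overlap between *Podxl* and *Synpo*, *Synpo* and *Clic5*, *Clic5* and *Wt1*, or *Ptpro* and *Plce1*. The ranges of *Wt1*, *Nphs1* and *Ptpro* overlapped with their neighbours, as did those of *Plce1* and *Magi2*. Within each of the 6 kidneys *Wt1* was above both *Nphs1* and *Ptpro*, while the order of *Nphs1* and *Ptpro*, and that of *Plce1* and *Magi2*, differed between kidneys.

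**Figure D1:**
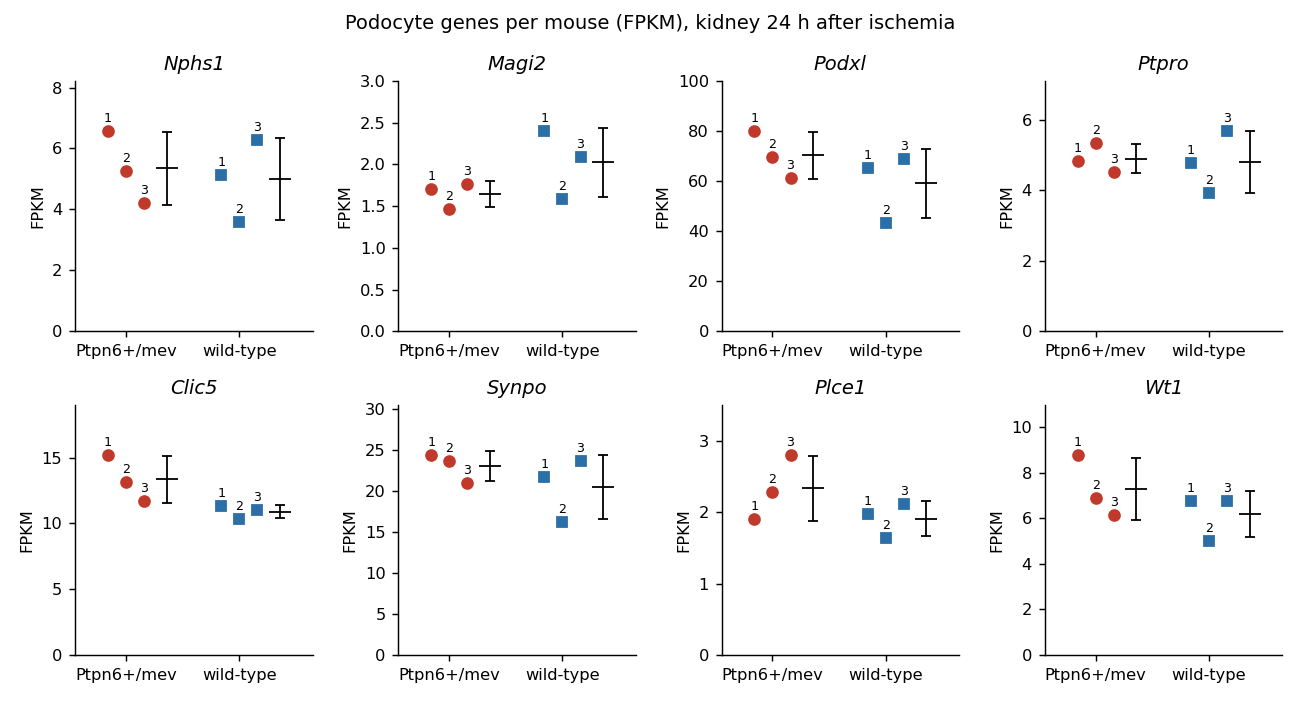
FPKM of the 8 podocyte genes (vertical axes, each from 0) in the 3 *Ptpn6*+/mev (circles) and 3 wild-type kidneys (squares), numbered by replicate, with the group mean and SD in black beside the points. The groups overlap for 7 genes, and for *Clic5* the lowest *Ptpn6*+/mev kidney at 11.7 FPKM lies just above the highest wild-type kidney at 11.3.

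*Nphs1* (ENSMUSG00000006649, chr7:30458315-30487223, plus strand, GRCm38) encodes nephrin. Its level was 6.57, 5.26 and 4.20 FPKM in *Ptpn6*+/mev kidneys 1 to 3 and 5.12, 3.59 and 6.27 FPKM in wild-type kidneys 1 to 3. The 2 highest kidneys, *Ptpn6*+/mev 1 and wild-type 3, came from different groups, and the ranges overlapped. The group means were 5.34 ± 1.19 and 4.99 ± 1.34 FPKM (SD, n = 3 each), and the log2 fold change was 0.04 (SE 0.22, 95% interval -0.46 to 0.55, edgeR FDR 0.966). Within groups *Nphs1* was the most variable of the 8, with an SD of log2 CPM (counts scaled to the library total) of 0.33 against a median of 0.19 over all tested genes. Its sign was not stable, since the log2 fold change was -0.13 without *Ptpn6*+/mev kidney 1 and -0.11 without wild-type kidney 2. An antisense gene, *Nphs1os*, overlaps *Nphs1* in the annotation, and reads of the pair could be shared if counting did not use the strand, which the sources used here do not state.

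*Magi2* (ENSMUSG00000040003, chr5:19227036-20704792, plus strand) encodes a scaffold that binds the tail of nephrin. It had the lowest level of the 8, at 1.70, 1.47 and 1.76 FPKM in *Ptpn6*+/mev and 2.40, 1.58 and 2.09 FPKM in wild-type kidneys. In FPKM only wild-type kidney 2 fell within the *Ptpn6*+/mev range. The counts behind these values were 109, 93 and 112 against 108, 94 and 154, so that on the count scale wild-type kidney 3 alone was high. The log2 fold change from counts was -0.12 (SE 0.18, 95% interval -0.53 to 0.29, edgeR FDR 0.862), and 0.02 without wild-type kidney 3. From FPKM, limma gave -0.19 with a pseudocount of 1 and -0.27 with 0.1.

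The counts and the FPKM of *Magi2* thus ranked the kidneys differently. The length at which a deposited count and library total give the deposited FPKM was 6242, 6107 and 5914 bases in *Ptpn6*+/mev kidneys and 4171, 5419 and 5961 bases in wild-type kidneys. The highest was 1.50 times the lowest, a larger ratio than in 95.3% of the 11841 tested genes with a mean of at least 1 FPKM and a value above 0 in each kidney, whose median ratio was 1.02. For *Wt1* the ratio was 1.20 and for *Ptpro* 1.11, for the other 5 genes between 1.00 and 1.03. *Magi2* has 15 annotated transcripts, *Wt1* 9 and *Ptpro* 8, against 2 each for *Podxl* and *Clic5* but 12 for *Synpo*. Whether the transcripts in use differ between kidneys was not tested. Fold changes below are from counts, and where both scales of *Magi2* differ the count scale is the tested one.

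**Figure D2:**
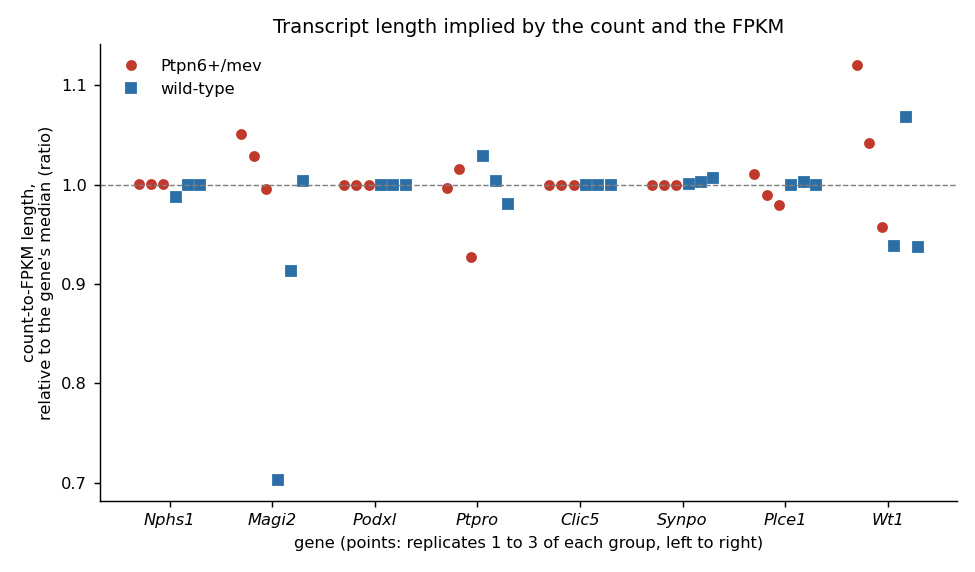
Transcript length implied by count, library total and FPKM, divided by the gene's median over the 6 kidneys (vertical axis, ratio), for each podocyte gene and kidney. *Podxl*, *Clic5* and *Synpo* lie at or near the line at 1, whereas *Magi2* in wild-type kidney 1 lies lowest, at 4171 bases.

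On the apical membrane, *Podxl* (ENSMUSG00000025608, chr6:31519488-31563981, minus strand) encodes podocalyxin, the sialylated protein of the negative coat, which vascular endothelium makes too. Its level was 80.0, 69.6 and 61.4 FPKM in *Ptpn6*+/mev and 65.3, 43.3 and 68.8 FPKM in wild-type kidneys. Wild-type kidney 2 stood below the other 5, and the remaining wild-type values lay inside the *Ptpn6*+/mev range. The means were 70.3 ± 9.35 and 59.1 ± 13.8 FPKM (SD, n = 3 each) and the log2 fold change 0.19 (SE 0.16, 95% interval -0.18 to 0.56, edgeR FDR 0.711). Without wild-type kidney 2 it was 0.04.

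*Ptpro* (ENSMUSG00000030223, chr6:137252319-137463233, plus strand) encodes GLEPP1, a receptor tyrosine phosphatase of the foot process and thus of the same enzyme class as SHP-1. It measured 4.82, 5.34 and 4.52 FPKM in *Ptpn6*+/mev and 4.77, 3.93 and 5.68 FPKM in wild-type kidneys, and the wild-type range enclosed the other. The means were 4.89 ± 0.415 and 4.79 ± 0.875 FPKM (SD, n = 3 each). The log2 fold change from counts was -0.07 (SE 0.15, 95% interval -0.42 to 0.28, edgeR FDR 0.915), and it was above 0 from FPKM, at 0.03 with a pseudocount of 1.

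Below the membrane, *Clic5* (ENSMUSG00000023959, chr17:44188584-44280172, plus strand) encodes a chloride intracellular channel family protein that links podocalyxin and ezrin to cortical actin. Its level was 15.2, 13.2 and 11.7 FPKM in *Ptpn6*+/mev and 11.3, 10.4 and 10.98 FPKM in wild-type kidneys. It was the only gene of the 8 whose groups did not overlap in FPKM. Such a separation was found for 20.4% of all tested genes, 14% with the *Ptpn6*+/mev kidneys higher. In CPM, with TMM library sizes, its values were 87.4, 75.9 and 66.8 against 67.0, 65.7 and 64.2, and *Ptpn6*+/mev kidney 3 fell just below wild-type kidney 1. The separation in FPKM therefore depended on the scaling of the libraries, and 0 of the 8 genes were apart in CPM, against 19.4% of all tested genes. The means were 13.3 ± 1.78 and 10.9 ± 0.487 FPKM (SD, n = 3 each). The log2 fold change was 0.22 (SE 0.11, 95% interval -0.03 to 0.48, edgeR FDR 0.474). It was above 0 with each library left out in turn, from 0.12 to 0.32.

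*Synpo* (ENSMUSG00000043079, chromosome 18) encodes synaptopodin, an actin-associated protein of the foot process. It measured 24.4, 23.7 and 20.9 FPKM in *Ptpn6*+/mev and 21.7, 16.2 and 23.7 FPKM in wild-type kidneys, with wild-type kidney 2 again the lowest and the groups overlapping. The means were 23.0 ± 1.84 and 20.5 ± 3.89 FPKM (SD, n = 3 each). The log2 fold change was 0.10 (SE 0.13, 95% interval -0.20 to 0.39, edgeR FDR 0.837) and -0.01 without wild-type kidney 2.

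*Plce1* (ENSMUSG00000024998, chr19:38481109-38785030, plus strand) encodes phospholipase C epsilon, a Ras-regulated enzyme needed for podocyte development. Its level was 1.91, 2.29 and 2.81 FPKM in *Ptpn6*+/mev and 1.98, 1.64 and 2.12 FPKM in wild-type kidneys. *Ptpn6*+/mev kidney 3, which was below average for most of the other genes, was the highest here. The means were 2.34 ± 0.452 and 1.91 ± 0.247 FPKM (SD, n = 3 each) and the log2 fold change 0.21 (SE 0.16, 95% interval -0.17 to 0.59, edgeR FDR 0.682). Without *Ptpn6*+/mev kidney 3 it was 0.07, and without kidney 1 of that group 0.32. An antisense gene, *Gm28991*, overlaps *Plce1* in the annotation.

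*Wt1* (ENSMUSG00000016458, chr2:105126529-105173616, plus strand) encodes the zinc finger transcription factor that maintains the podocyte programme, with nephrin and podocalyxin among its known targets. It measured 8.78, 6.88 and 6.13 FPKM in *Ptpn6*+/mev and 6.74, 5.00 and 6.76 FPKM in wild-type kidneys. *Ptpn6*+/mev kidney 1 was the highest and kidney 3 of that group lay within the wild-type range. The means were 7.26 ± 1.37 and 6.17 ± 1.01 FPKM (SD, n = 3 each). Its log2 fold change, 0.28 (SE 0.21, 95% interval -0.20 to 0.75, edgeR FDR 0.657), had the highest upper bound among the 8. Without *Ptpn6*+/mev kidney 1 it was 0.05.

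**Figure D3:**
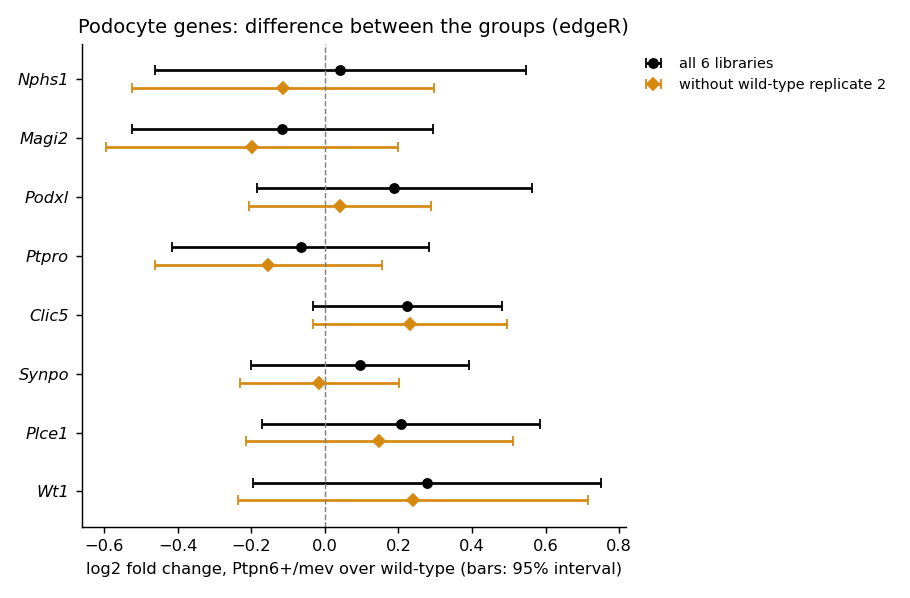
Log2 fold change of *Ptpn6*+/mev over wild-type (horizontal axis) with the 95% interval from edgeR, for all 6 libraries (circles) and without wild-type replicate 2 (diamonds). Each interval spans 0, and without that library the values of *Nphs1* and *Synpo* lie below 0.

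Start regions were available from RefSeq for 5 of the 8 genes, as 250 bases before the start site in GRCm38.p6. Those shown are of *Clic5*, whose FPKM separated the groups, of *Ptpro*, whose did not, and of an internal start of *Magi2*, the gene whose implied transcript length varied most. Capitals mark the motif match described after them, and all 3 regions are on the plus strand, at chr17:44188322-44188571, chr6:137252049-137252298 and chr5:19907268-19907517.
Clic5: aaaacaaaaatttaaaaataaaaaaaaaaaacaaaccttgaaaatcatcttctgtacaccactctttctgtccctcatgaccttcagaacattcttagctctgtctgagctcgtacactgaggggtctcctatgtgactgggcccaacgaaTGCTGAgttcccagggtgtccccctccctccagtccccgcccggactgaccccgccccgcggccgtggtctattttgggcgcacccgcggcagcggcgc
Ptpro: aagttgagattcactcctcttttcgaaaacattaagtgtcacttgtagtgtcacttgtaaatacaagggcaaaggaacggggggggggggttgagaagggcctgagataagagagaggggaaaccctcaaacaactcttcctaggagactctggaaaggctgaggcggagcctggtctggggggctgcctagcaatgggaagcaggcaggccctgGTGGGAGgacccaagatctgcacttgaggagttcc
Magi2, internal start: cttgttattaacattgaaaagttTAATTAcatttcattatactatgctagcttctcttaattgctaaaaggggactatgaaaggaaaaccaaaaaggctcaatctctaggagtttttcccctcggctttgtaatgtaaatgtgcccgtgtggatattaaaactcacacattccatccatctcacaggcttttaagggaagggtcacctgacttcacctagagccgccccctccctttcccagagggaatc

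Both strands were searched for 5 runs of letters. The letters TGCTGA stood at position -99 of *Clic5*, and 16.1% of all 32851 start regions hold them. Sites bound by WT1 were sought by 2 overlapping pieces of their consensus that have 5 letters in common. Its later piece, GTGGGAG, stood at position -35 of *Ptpro* and is present in 8.25% of all the start regions. Its earlier piece, GCGTGGG, was found on the minus strand at position -117 of the upstream start of *Magi2*, beside 4.30% of all start regions. The homeodomain core, TAATTA, stood at position -227 of the internal *Magi2* start, beside 4.84% of all start regions. The start regions available for *Nphs1* (chr7:30459808-30460057) and *Plce1* (chr19:38523947-38524196) held none of these. Both are of internal starts, within the annotated gene and overlapping exons. The bases before the first annotated start of these genes were not searched. The letters of a TATA box, TATAAA, were present in 12.4% of all start regions and in none of those searched for the 5 genes. A match is a run of letters only, and no binding was measured.

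All 8 genes were below their own mean in wild-type kidney 2, by log2 CPM of between -0.45 and -0.11, and in the other 5 kidneys they lay on both sides of it. Their log2 CPM, each centred on the gene's mean over the 6 libraries, averaged 0.18, 0.06 and -0.08 in *Ptpn6*+/mev kidneys 1 to 3 and -0.01, -0.25 and 0.10 in wild-type kidneys 1 to 3. Wild-type kidney 2 was the lowest for 4 of the 8, namely *Nphs1*, *Podxl*, *Synpo* and *Plce1*, and this library was the lowest for 30.2% of all tested genes. *Ptpn6*+/mev kidney 1 was the highest for 5 of the 8, *Nphs1*, *Podxl*, *Wt1*, *Synpo* and *Clic5*, and for 16.6% of all tested genes. *Synpo* followed the mean of the other 7 most closely, with a root mean square distance of 0.044 on the log2 scale. *Plce1* was the farthest from it, at 0.26. The difference between 2 kidneys of 1 group could exceed that between the groups: the FPKM summed over the 8 genes was 143, 128 and 113 in *Ptpn6*+/mev and 119, 85.5 and 126 in wild-type kidneys.

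Markers of other kidney cells showed what else set the libraries apart. In wild-type kidney 2, the median of 9 endothelial markers (*Plat* and *Pecam1* the most abundant) minus the mean of the other 5 libraries was -1.21 on the log2 scale. That of 9 mesangial and pericyte markers (*Acta2*, *Ren1*) was -1.21 too, but these did not fall as a set. *Acta2* was at -1.52 and *Ren1* at -0.004, and the 9 ran from -2.08 to 0.49. The median of 7 macrophage markers (*Lyz2*, *C1qb*) was -1.02. The corresponding median of the 8 podocyte genes was -0.27, and that of 6 distal nephron and collecting duct markers (*Umod*, *Aqp2*) was 0.68. Summed FPKM of the endothelial list was 321, 311 and 314 in *Ptpn6*+/mev and 246, 152 and 273 in wild-type kidneys. *Plat* held most of the group difference of this sum, and the other 8 endothelial markers summed to 159, 153 and 154 FPKM in *Ptpn6*+/mev and 165, 66.3 and 160 FPKM in wild-type kidneys, where only wild-type kidney 2 lay below the *Ptpn6*+/mev range. *Podxl*, which endothelium shares, was -0.54 in wild-type kidney 2 against the other 5. By the same measure *Nphs1* was -0.46 and *Synpo* -0.37, and the 8 podocyte genes ran from -0.54 to -0.13. Of 6 parietal epithelial markers, which lie next to the podocyte in the glomerulus but are found elsewhere in injured kidney too, 1 passed the FDR: *Cldn1*, a tight junction claudin, rose by 1.10 on the log2 scale (SE 0.08, edgeR FDR 0.004), beside the 0.138% called of all tested genes. The summed FPKM of that list was 182, 153 and 179 in *Ptpn6*+/mev and 97.2, 104 and 101 in wild-type kidneys. The 8 proximal tubule markers (*Slc34a1* and *Miox* the most abundant) summed to 612, 747 and 630 FPKM against 957, 797 and 887. Of 7 tubular injury markers 0 passed the FDR, beside the same 0.138%, and *Havcr1*, the tubular injury marker KIM-1, was at 1087 FPKM or above in each kidney. Of 6 lymphocyte markers only *Ptprc* was tested, and the list summed to at most 3.04 FPKM. No marker of these lists was at 0 in all 6 libraries. The part of these cells in the podocyte values was not tested.

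**Figure D4:**
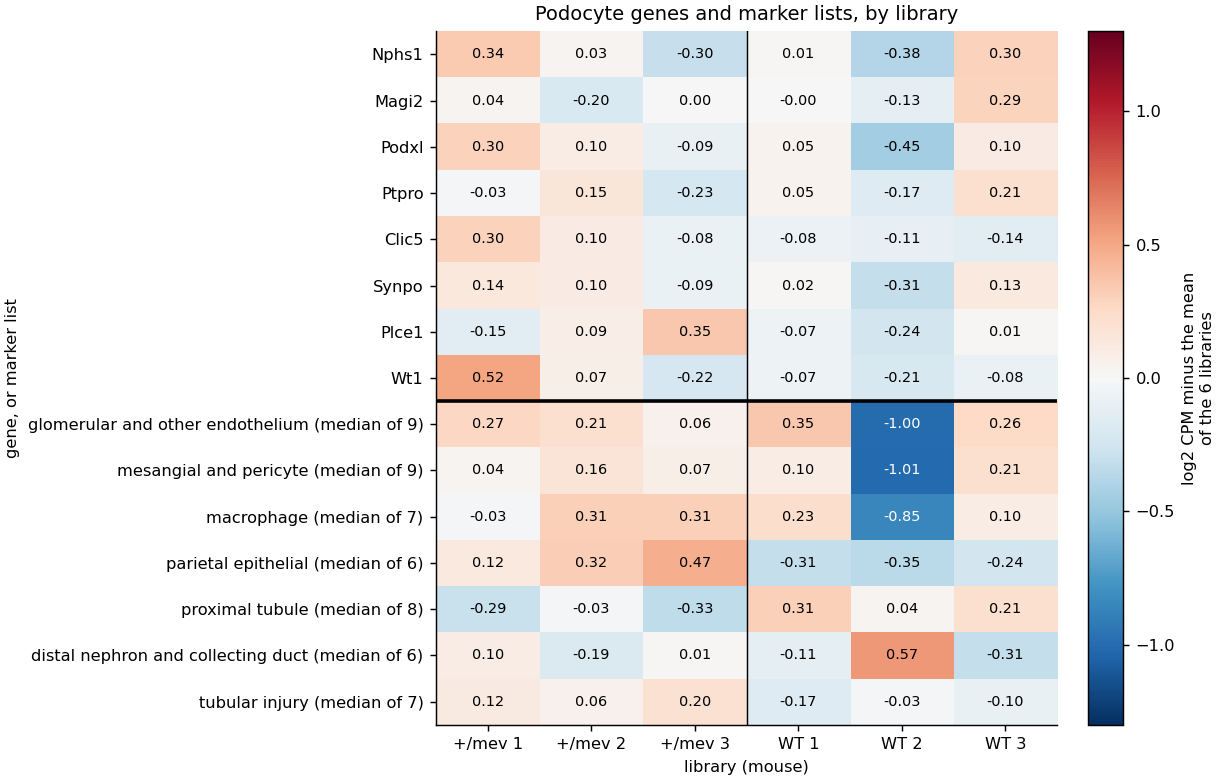
Log2 CPM minus the mean of the 6 libraries (colour and printed value) for each podocyte gene and for the median of each marker list, with *Ptpn6*+/mev libraries on the left (+/mev) and wild-type on the right (WT). WT 2 is low for the medians of the endothelial, mesangial and macrophage lists and, less so, for *Podxl*, *Nphs1* and *Synpo*.

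Next, a list of 51 other podocyte and filtration barrier genes was read, of which 48 were tested. In whole kidney their RNA cannot be assigned to the filter. *Arhgdia* and *Ezr*, for example, had means of 336 and 268 FPKM over the 6 kidneys, against 5.17 for *Nphs1*. *Kirrel2*, *Kirrel3* and *Trpc6* were below the filter, with at most 13 counts in a library. With edgeR (quasi-likelihood), 0 of 48 passed the FDR, beside 0.138% of all tested genes. At an unadjusted p under 0.05, 3 were higher and 1 lower in *Ptpn6*+/mev kidneys, against 5.53% and 6.71% of all tested genes. DESeq2 called 2 of the 48, *Npnt* and *Vegfa*, beside 2.97% of all tested genes, and edgeR's exact test called 1, *Npnt*, beside 2.99%. The median log2 fold change of the 48 was 0.06, with 32 above 0 and 16 below, beside 49.5% above 0 of all tested genes. Wild-type kidney 2 was the lowest for 23 of the 48, and without it 28 were above 0 and 20 below, with a median of 0.04. Without *Ptpn6*+/mev kidney 1 the signs were 23 above and 25 below, with a median of -0.02. The groups did not overlap in FPKM for 10 of the 48, beside 20.4% of all tested genes.

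Among slit diaphragm proteins and adaptors, the 11 tested genes had a median of 0.15, and 8 were above 0. The abundant *Prkci*, an atypical protein kinase C of the polarity complex, measured 19.8, 24.7 and 24.8 FPKM in *Ptpn6*+/mev and 24.5, 22.1 and 24.3 FPKM in wild-type kidneys. The ranges overlapped, and its log2 fold change was -0.06 (SE 0.14, edgeR FDR 0.918).

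Among 12 genes of the glomerular basement membrane and its adhesion, 10 were above 0, with a median of 0.14. *Npnt*, the matrix protein nephronectin, measured 52.0, 39.0 and 44.2 FPKM in *Ptpn6*+/mev and 26.4, 26.1 and 37.4 FPKM in wild-type kidneys. Its ranges did not overlap. The log2 fold change was 0.56 (SE 0.15, 95% interval 0.21 to 0.91), with an FDR of 0.189 in edgeR's quasi-likelihood test, 0.0437 in DESeq2 and 0.0494 in edgeR's exact test. *Itga3*, the integrin chain that binds laminin in this membrane, was at 0.32 (SE 0.10, edgeR FDR 0.229). The abundant *Cd151*, a tetraspanin partner of that integrin, was at -0.12 and *Itgb1*, its beta chain, at 0.20.

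The remaining roles had medians nearer 0 or below it. For the 10 cytoskeletal and apical genes the median was 0.08, with *Arhgdia*, an inhibitor of small GTPases, at 0.04 and *Ezr*, the gene of ezrin, at -0.05. For the 7 transcription factors it was -0.12, and the abundant *Tcf21* stood at -0.40 (SE 0.35). For the 8 secreted factors, receptors and other enriched genes it was -0.09. *Vegfa*, the endothelial growth factor that podocytes and tubules secrete, measured 40.0, 37.5 and 37.1 FPKM in *Ptpn6*+/mev and 49.1, 44.9 and 46.6 FPKM in wild-type kidneys. The groups did not overlap, and the log2 fold change was -0.34 (SE 0.08, 95% interval -0.53 to -0.14), with an FDR of 0.160 in edgeR's quasi-likelihood test and 0.0405 in DESeq2. *Enpep*, the gene of aminopeptidase A, was at -0.22.

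**Figure D5:**
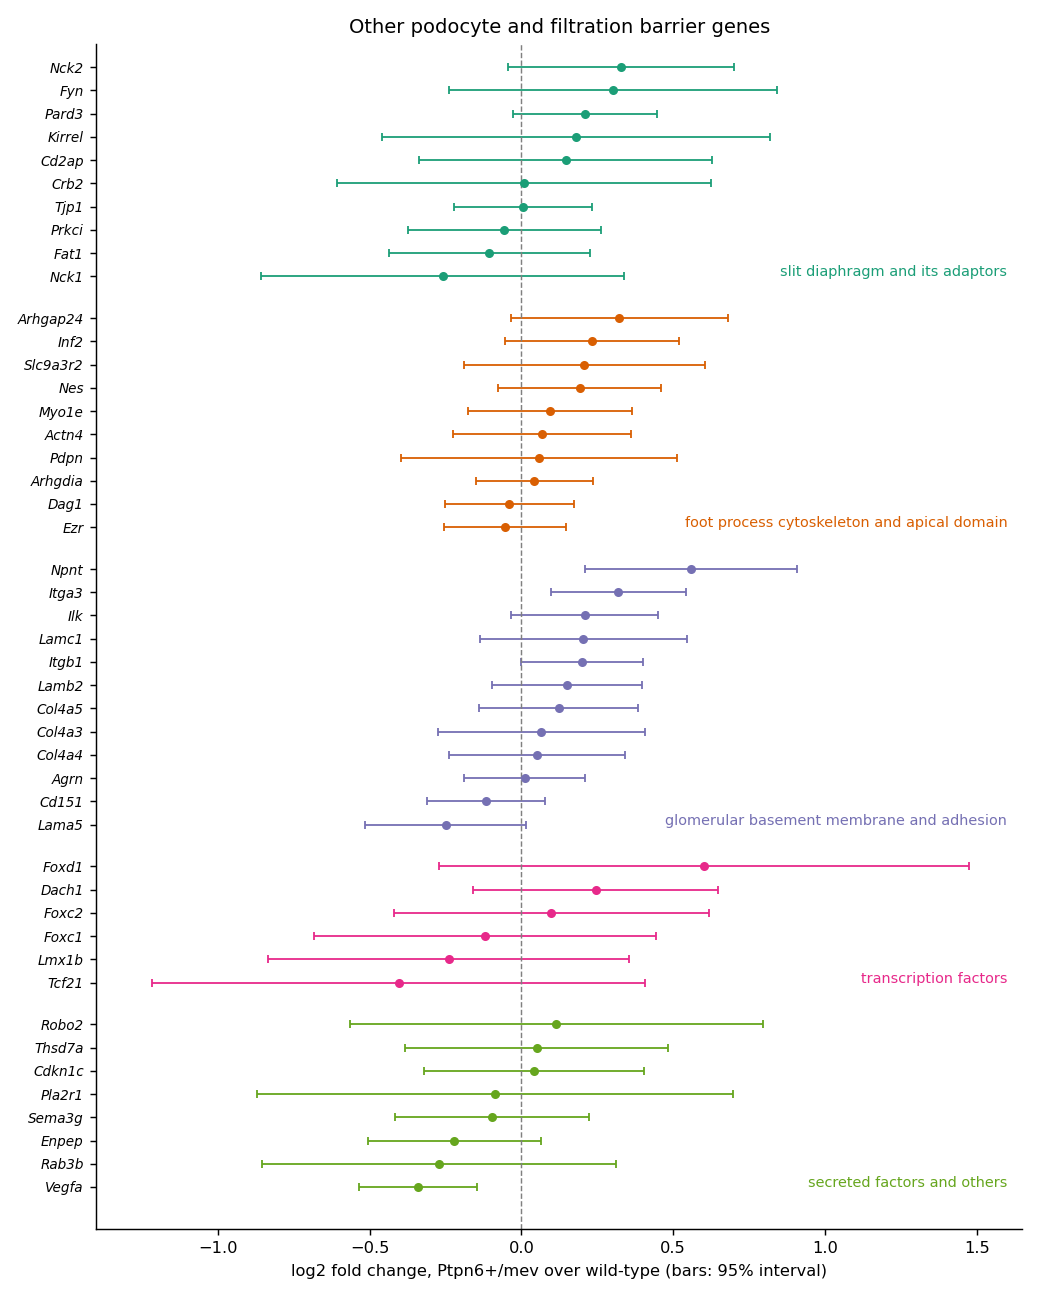
Log2 fold change of *Ptpn6*+/mev over wild-type (horizontal axis) with 95% intervals from edgeR for other podocyte and filtration barrier genes, coloured by role. The intervals of *Npnt*, *Itga3* and *Vegfa* exclude 0, before adjustment over all tested genes.

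The genes whose library pattern was most like the mean of the 8 were sought among 11845 tested genes with a mean of at least 1 FPKM. The nearest by root mean square distance of centred log2 CPM over the 6 libraries were *Ammecr1l* at 0.028, *Chn1* at 0.034, *Bpnt1* at 0.037 and *Slc25a29* at 0.041, given here for 4 of the 5 nearest. None of the 5 is on the barrier list. The nearest gene of that list was *Pard3*, a polarity protein, at rank 171 with a distance of 0.074, followed by *Ilk* at rank 195 and *Actn4* at rank 496. In the annotation terms deposited with the table, 6 of the 8 genes carried plasma membrane, beside 21.4% of tested genes. Cellular component assembly was listed for 5 of the 8, beside 15.3%, and a KEGG pathway of any kind for 3 of the 8, beside 36.6%. *Plce1* and *Magi2* shared Rap1 signaling, a term of 1.33% of tested genes.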

How the data were processed

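Polyadenylated RNA of whole left kidneys from 3 *Ptpn6*+/mev and 3 wild-type mice was sequenced, and TopHat was the aligner, with GRCm38.p5 as the genome. Per the submitters' processing notes this was TopHat2 2.0.3.12, run with Bowtie2, and Cufflinks and RSEM are named as well. The study's methods give a different TopHat version. The deposited table gives, for each library, an estimated count and an FPKM per gene as the authors made them, and which tool gave the counts is not stated. The RNA extraction reagent differs between the labels and the methods. In the table, the columns of the groups are named HE and WT, and HE was read as the heterozygous *Ptpn6*+/mev mice by replicate number.

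Counts were rounded (1744 genes had fractional values, 0 of the 8 podocyte genes). They were tested with edgeR 4.0.16 in R 4.3.3, with TMM, filterByExpr and the quasi-likelihood F-test, over 13036 genes with Benjamini-Hochberg adjustment. Alternatives were DESeq2 1.42.0, edgeR's exact test, limma 3.58.1 on log2 of the FPKM (pseudocount 1, or 0.1), other size factors and filters, a replicate block, and leaving out each library. The fit was also run on simulated data, but the outcome is not reported here and no result above rests on it. CPM used TMM library sizes, and a prior count of 2 on the log2 scale. Total counts were 10271590 to 12361745 per library, and standard errors give the precision of each gene. Levels, marker sums and distances between genes are descriptions without a test. Figures were drawn with matplotlib 3.10.9.

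The 8 genes, the lists and the tests were chosen with earlier results of these data known. Besides the 8 and *Ptpn6*, named genes are the 2 most abundant of each role or marker list, with all those at an unadjusted p under 0.05 or at the FDR, and the 5 of nearest pattern. Some genes that this rule names are not reported here. Gene positions are from the GENCODE annotation of GRCm38, and start regions from RefSeq. Each library is from 1 mouse, and libraries of 1 group differed by more than sampling noise. Columns of Gene Ontology and KEGG terms were used as deposited.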

Additional observations from a re-analysis of the deposited data

How the results depend on the processing

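Of 120 log2 fold changes of the 8 genes under 15 alternative settings, 112 kept their direction, 8 reversed and 0 crossed the FDR of 0.05. The lowest FDR was 0.350, for *Clic5* without wild-type replicate 2. Reversed values were those of *Ptpro* with limma on FPKM (0.033 with a pseudocount of 1, 0.041 with 0.1) and values with 1 library left out. These ranged from -0.13 to 0.22 for *Nphs1* (below 0 without *Ptpn6*+/mev replicate 1 or wild-type replicate 2), from -0.015 to 0.19 for *Synpo* (without wild-type replicate 2), from -0.16 to 0.030 for *Ptpro* (above 0 without *Ptpn6*+/mev replicate 3 or wild-type replicate 3) and from -0.20 to 0.016 for *Magi2* (without wild-type replicate 3). With 1 library left out, *Podxl* ranged from 0.04 to 0.29, *Plce1* from 0.07 to 0.32, *Wt1* from 0.05 to 0.44 and *Clic5* from 0.12 to 0.32. The median of the 8 was lowest when wild-type replicate 2 was left out (0.013) and highest when replicate 3 of that group was (0.21).

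The 18 calls over all tested genes became 387 with DESeq2, 390 with edgeR's exact test, 52 without a filter, and 1 to 231 with 1 library left out, the extremes being without *Ptpn6*+/mev replicate 3 and without wild-type replicate 2. Of the other barrier genes DESeq2 called 2 and the exact test 1. The causes were not tested. After each group's mean log2 CPM was subtracted per gene, same-numbered libraries correlated at -0.14, -0.18 and -0.13. Libraries with different numbers correlated at -0.01 to 0.16. With 3 libraries per group, whose deviations sum to 0, these values cannot decide whether the numbers pair the mice. A replicate block left 1 call over all genes and 0 of the 8. Counts per library were lowest for *Magi2*, at 93 to 154, while the interval was widest for *Nphs1*.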

Other observations

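Of the parietal epithelial markers, *Akap12*, a kinase anchoring protein, measured 68.5, 27.7 and 55.3 FPKM in *Ptpn6*+/mev and 21.4, 28.7 and 24.4 FPKM in wild-type kidneys. *Vcam1*, an adhesion molecule, measured 13.3, 24.0 and 22.8 FPKM against 11.7, 5.91 and 11.4 FPKM. Their edgeR FDR was 0.248 and 0.188, and neither passed. *Plat*, tissue plasminogen activator of the glomerular endothelium and other cells, measured 163, 158 and 159 FPKM in *Ptpn6*+/mev and 80.9, 85.9 and 114 FPKM in wild-type kidneys. Its groups did not overlap and its log2 fold change was 0.71 (SE 0.12, edgeR FDR 0.079), which did not pass either.

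Of the 8 proximal tubule markers 4 were lower in *Ptpn6*+/mev kidneys at an unadjusted p under 0.05, beside 6.71% of all tested genes, and 0 passed the FDR, beside 0.138%. *Slc22a6*, the organic anion transporter OAT1, measured 71.4, 99.0 and 70.4 FPKM against 180, 183 and 130 FPKM in wild-type kidneys, a log2 fold change of -1.11 (SE 0.19, edgeR FDR 0.077). Those of *Miox*, *Lrp2* and *Cubn* were -0.46, -0.44 and -0.84, and that of the abundant *Slc34a1*, the phosphate transporter, was -0.34. *Slc12a3*, the thiazide-sensitive transporter of the distal tubule, stood at -0.43. Of the injury markers, *Havcr1* and the keratin *Krt18* stood at 0.27 and 0.55 with an edgeR FDR of 0.325 and 0.196, and the abundant *Clu* and *Lcn2* at 0.08 and -0.08. *Pax8*, the abundant transcription factor of the parietal list, stood at 0.23.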
